A study of Rattus norvegicus with 6 samples.

Results

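The glycolysis and hypoxia response genes are a list of 37 gene symbols, chosen for their known roles and matched by name to the array. The list was drawn up with earlier results of these data known. Shares of the list set beside those of all genes are therefore a description and not a test. Of these, 36 were found as gene names on the array and all 36 could be tested, out of 19601 genes tested in all. The remaining name, Ero1l, is an older symbol of Ero1a, which is counted once. The list divides into 22 genes of glucose uptake, glycolysis and lactate export and 14 regulators or target genes of the hypoxia response. RNA came from rat bone marrow stromal cells (rBMSCs), plastic-adherent cells of the marrow able to give rise to osteoblasts, chondrocytes and adipocytes, isolated from tibias. The cells were kept for 7 days on tantalum-modified titanium (Ta, 3 arrays) or on simple titanium (Ti, 3 arrays), and no other treatment is named for either group. The groups follow the sample titles and the culture label; the treatment text of the Ti samples repeats that of the Ta samples, so these labels disagree on the surface. The design text describes the cultures of each group as independent experiments. The labels give neither the strain, sex and age of the rats nor whether the cultures came from different animals.

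Glycolysis splits glucose into pyruvate in the cytoplasm, and cells that lack oxygen, or that divide or respond to inflammation, often convert this pyruvate to lactate and export it. The hypoxia inducible factors (HIF) are transcription factors whose alpha subunits are marked for destruction by oxygen-dependent prolyl hydroxylases. When oxygen falls, the alpha subunits persist, pair with Arnt and bind short DNA motifs near genes for glucose transport, glycolysis, blood vessel growth and mitochondrial turnover. In bone marrow, where oxygen is low, stromal and osteoblast lineage cells are known to rely strongly on glycolysis.

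Of the 36 genes, 4 rose on Ta and 0 fell, with a Benjamini-Hochberg adjusted p under 0.05 in limma over all 19601 genes. They were Slc2a1, the widely expressed glucose transporter, Pfkl, the liver form of phosphofructokinase, Slc16a3, a lactate exporter, and Egln3, a prolyl hydroxylase that is itself a HIF target. The 4 genes make up 11.1% of the list, against 4.12% of all genes called in either direction, 2.65% called higher and 1.47% called lower. At an unadjusted p under 0.05, 16 members were higher (44.4%) and 2 lower, where 16.7% of all genes were higher and 13.2% lower, 30% in either direction. The difference lay above 0 in 31 members (86.1%), against 53.8% of all genes. All 36 were well above background and none saturated on any of the 6 arrays. The values below are log2 signals of 1 probe per gene, its brightest, after each array was scaled to a common 75th percentile. They allow a gene to be compared between arrays but not with another gene.

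The members with the strongest test results can be read beside the DNA in front of an annotated start of their genes. HIF complexes are known to bind a core written ACGTG or GCGTG. Sequences below are from RefSeq (assembly GRCr8), on the strand of the gene, in lower case, with every match of these cores on either strand in capitals. A match on the opposite strand therefore reads CACGT or CACGC, and the palindrome CACGTG holds 2 overlapping matches. Slc2a1 and Pfkl are shown because they rose on Ta and hold matches, and Ldha and Bnip3 as members that hold matches but did not pass the test. Distances count from 1 annotated start per gene. For Pfkl this start lies inside the gene positions given below, which begin at 10663907.
Slc2a1, chr5:138002362-138002521, plus strand, the 160 bases before the start: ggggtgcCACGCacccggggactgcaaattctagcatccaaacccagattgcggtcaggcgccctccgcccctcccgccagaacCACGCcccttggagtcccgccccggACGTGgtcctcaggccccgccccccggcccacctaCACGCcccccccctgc
Pfkl, chr20:10663745-10663814, plus strand, bases 220 to 151 before the start: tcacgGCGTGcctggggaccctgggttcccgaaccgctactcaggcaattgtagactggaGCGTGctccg
Ldha, chr1:106507997-106508091, plus strand, the 95 bases before the start: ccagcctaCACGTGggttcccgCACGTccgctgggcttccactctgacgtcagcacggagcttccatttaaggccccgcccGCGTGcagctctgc
Bnip3, chr1:203155043-203155077, minus strand, bases 115 to 81 before the start: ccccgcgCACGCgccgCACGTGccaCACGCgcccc

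Slc2a1 held 4 matches in the 250 bases before its start, Pfkl 2, Ldha 4 and Bnip3 4. Egln3 and Slc16a3, which also rose, held 0 in that window. RefSeq gave such a window for 31 of the 36 members, and 19 of the 31 (61.3%) held at least 1 core, against 12284 of 33469 windows (36.7%) of the whole table. Each member counts with 1 window, the first for the 4 members with more than 1, while the table counts every window. Known HIF targets are on the member list by choice, so these shares are a description and not a test. The members' windows also held more CG dinucleotides, with a median of 17 against 5 over the table, and both cores contain CG. A core was present in 12 of 20 windows of glycolysis genes and in 7 of 11 of hypoxia genes. These are matches of letters, and the annotated start may not be the one these cells use. In some members this start lies inside the gene, so the windows are not all upstream of the whole gene. The window of P4ha1, for example, begins at position 27844796 of chromosome 20, in a gene spanning 27784696 to 27895785. Windows of Hif1a, Pfkfb3 and Pfkm, which also held a core, lie inside their genes too.

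Glucose enters the cell through the transporters at the head of the pathway. Slc2a1 (chromosome 5, positions 138002522 to 138030742, GRCr8) had log2 signals of 13.14, 13.53 and 13.25 on the Ta arrays and 12.41, 12.70 and 12.53 on the Ti arrays. Every Ta array lay above every Ti array, and the 2 groups did not overlap. The difference was 0.76 ± 0.13 on the log2 scale (SE, n = 3 per group), 1.69-fold, with an adjusted p of 0.0453 in limma. Slc2a3, a high-affinity glucose transporter prominent in neurons, averaged 6.56 ± 0.08 on Ta and 6.53 ± 0.04 on Ti (SD, n = 3 each). Its groups overlapped, and its difference of 0.03 had a 95% interval of -0.17 to 0.23.

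Hexokinases trap glucose as glucose phosphate. Hk1, the form found in most tissues, had 7.63, 8.08 and 8.11 on Ta and 7.65, 7.57 and 7.60 on Ti. Ta replicates 2 and 3 lay above all Ti arrays, and Ta replicate 1 lay among them. The difference of 0.33 ± 0.14 did not pass the test (adjusted p = 0.184 in limma, n = 3 per group). Hk2, the inducible hexokinase and a well-known HIF target, differed by 0.09 with overlapping groups, and its second probe gave 0.15. Gpi, which turns glucose phosphate into fructose phosphate, averaged 13.45 ± 0.05 on Ta and 13.05 ± 0.22 on Ti (SD, n = 3 each), without overlap and with a difference of 0.40 (adjusted p = 0.0993 in limma).

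Phosphofructokinase catalyses the committed step of glycolysis and has 3 subunit genes on the list, of which 1 passed the test. Pfkl (chromosome 20, positions 10663907 to 10685967, GRCr8) had 9.15, 9.11 and 9.11 on Ta and 8.56, 8.49 and 8.26 on Ti. The Ta arrays lay very close together and above every Ti array. Pfkl rose by 0.69 ± 0.10 (SE, n = 3 per group), 1.61-fold, with the lowest adjusted p of the 36 members in limma (0.0401). The muscle subunit Pfkm had 9.29, 9.40 and 9.70 on Ta and 8.95, 9.10 and 8.67 on Ti, again without overlap. Its difference was 0.56 ± 0.16 and did not pass (adjusted p = 0.0817 in limma, n = 3 per group). The platelet subunit Pfkp had 12.49, 12.32 and 12.11 on Ta and 12.70, 12.61 and 12.72 on Ti. Here every Ta array lay below every Ti array, with a difference of -0.37 ± 0.12 that did not pass (adjusted p = 0.0982 in limma, n = 3 per group). Pfkp was the only one of the 22 glycolysis members with a difference below 0.

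Pfkfb3 and Pfkfb4 make and break down fructose bisphosphate in its regulatory form, the strongest activator of phosphofructokinase. Pfkfb3, whose enzyme favours synthesis of the activator, averaged 12.14 ± 0.17 on Ta and 11.58 ± 0.10 on Ti (SD, n = 3 each). All Ta arrays were above all Ti arrays, and the difference of 0.56 ± 0.11 fell just outside the threshold (adjusted p = 0.0515 in limma, n = 3 per group). A second Pfkfb3 probe, close to the dim end of the array at 5.20 on Ta and 5.11 on Ti, gave 0.09. Pfkfb4 averaged 8.53 ± 0.06 on Ta and 8.26 ± 0.01 on Ti (SD, n = 3 each), without overlap, a difference of 0.27 (adjusted p = 0.0813 in limma).

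The enzymes that split and rearrange the sugar came next. Aldoa and Aldoc, the muscle and brain forms of aldolase, differed by 0.08 and 0.00, and their groups overlapped. Tpi1, which interconverts the triose phosphates, averaged 11.31 ± 0.25 on Ta and 10.96 ± 0.05 on Ti (SD, n = 3 each), a difference of 0.35 (adjusted p = 0.153 in limma). Its groups did not overlap. Pgk1, the first ATP-forming enzyme, differed by 0.25 and Pgam1, phosphoglycerate mutase, by 0.24, and neither passed (adjusted p = 0.187 and 0.156 in limma). Eno1, the common enolase, differed by 0.33 and Eno2, the neuronal enolase, by 0.38 (adjusted p = 0.169 and 0.17). In both enolases Ti replicate 2 overlapped the Ta arrays.

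Gapdh, which oxidises glyceraldehyde phosphate and is widely used as a reference gene, was covered by 8 tested probes that did not give 1 value. The brightest had 15.62, 15.77 and 15.89 on Ta and 15.35, 15.67 and 15.47 on Ti. The groups overlapped through Ti replicate 2, and the difference of 0.27 ± 0.12 did not pass (adjusted p = 0.195 in limma, n = 3 per group). The next 3 probes, at 14.96 to 15.02 on Ti, gave 0.34, 0.41 and 0.33. The dimmest 4, at 11.92 to 13.59 on Ti, gave 0.09, 0.03, 0.00 and 0.09. Gapdh has many near-identical processed copies in rodent genomes, so what each probe binds is uncertain. Ldha, Pgk1 and Eno1 also have such copies.

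Pkm, pyruvate kinase, makes pyruvate in the final step. It had 14.51, 14.66 and 14.68 on Ta and 13.80, 14.33 and 13.81 on Ti. Every Ta array lay above every Ti array, and Ti replicate 2 lay nearest to Ta. The difference was 0.63 ± 0.16 (adjusted p = 0.0711 in limma, n = 3 per group). All 4 Pkm probes gave similar values, between 0.50 and 0.64, over a wide range of brightness. The probes do not separate the M1 and M2 splice forms of Pkm by name.

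Pyruvate is reduced to lactate by lactate dehydrogenase and the lactate leaves through monocarboxylate carriers. Ldha, the subunit that favours lactate formation, had 16.33, 16.50 and 16.64 on Ta and 16.13, 16.17 and 16.21 on Ti. The groups did not overlap, and the difference was 0.32 ± 0.10 (adjusted p = 0.0996 in limma, n = 3 per group). The other Ldha probes gave 0.22 and -0.09, and the probe at -0.09 had 14.99 on Ta replicate 2 against 15.92 and 16.16 on the other Ta arrays. Slc16a3 (chromosome 10, positions 106712328 to 106756168, GRCr8), the lactate carrier also called MCT4, had 13.66, 14.14 and 14.01 on Ta and 12.82, 13.32 and 12.89 on Ti. All Ta arrays lay above all Ti arrays. Slc16a3 rose by 0.93 ± 0.18, 1.91-fold, the largest difference of the glycolysis genes (adjusted p = 0.0494 in limma, n = 3 per group). Pdk1, the kinase that blocks pyruvate entry into the mitochondrial cycle and a known HIF target, differed by 0.01 with overlapping groups. Its 4 probes ran from -0.20 to 0.33, so its direction depends on the probe.

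**Figure D1:**
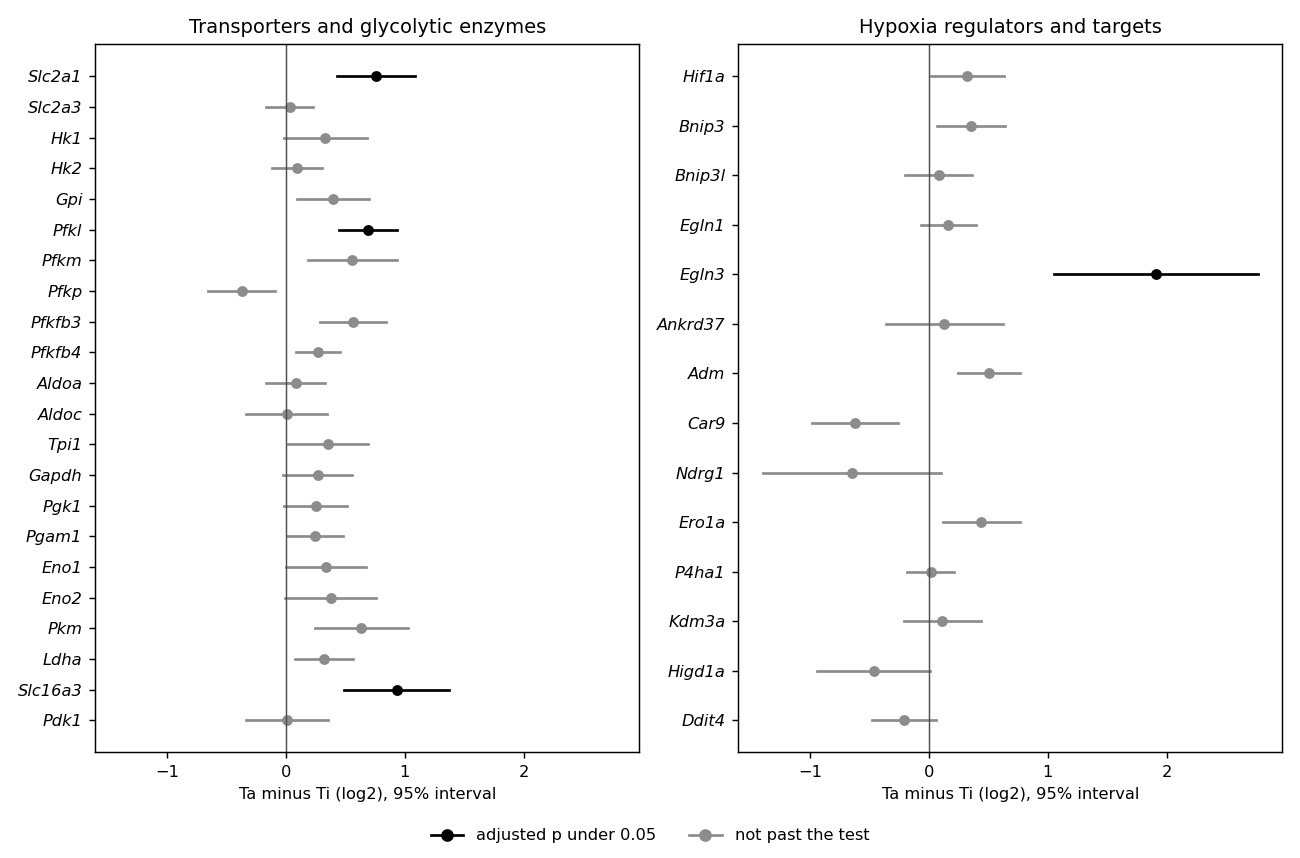
Difference between Ta and Ti for each of the 36 members on the log2 scale (points) with its 95% interval from limma (lines, n = 3 arrays per group), black where the adjusted p was under 0.05. The glycolysis genes lie mostly to the right of 0, with Pfkp at -0.37, and the hypoxia genes spread from -0.65 for Ndrg1 to 1.91 for Egln3.

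Across the 22 glycolysis genes, 3 rose and 0 fell (13.6% called, against 4.12% of all genes). Differences lay above 0 in 21 (95.5%, against 53.8% of all genes). In 11 of the 22 every Ta array lay above every Ti array, and in 1 below, where 19.5% of all genes lay wholly above and 16.3% wholly below. The median difference was 0.32, against 0.03 over all genes tested, and the differences ran from -0.37 to 0.93. Averaged over the 22 genes, the level was 12.13, 12.28 and 12.22 on the Ta arrays and 11.84, 11.99 and 11.83 on the Ti arrays, so the groups did not overlap. With each array centred on its median, Slc2a3, Aldoc and Pdk1 lay just below 0, the median of the 22 was 0.29, and that of all genes was -0.01.

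The hypoxia genes were less uniform, and their median difference was 0.12. Hif1a encodes the oxygen-regulated alpha subunit that gives the pathway its name, and its RNA is known to say little about the level of its protein. It had 14.01, 14.13 and 14.10 on Ta and 13.70, 14.00 and 13.58 on Ti. The lowest Ta array lay barely above Ti replicate 2. The difference of 0.32 ± 0.13 did not pass (adjusted p = 0.15 in limma, n = 3 per group), and a second, dimmer probe gave 0.06 with overlapping groups.

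The prolyl hydroxylases Egln1 and Egln3 mark the HIF alpha subunits for destruction, and both genes are themselves induced by HIF. Egln3 (chromosome 6, positions 77385549 to 77411015, GRCr8) had 8.10, 9.29 and 9.06 on Ta and 6.71, 7.37 and 6.65 on Ti. Every Ta array lay above every Ti array, with Ta replicate 1 and Ti replicate 2 the nearest of the groups. Egln3 rose by 1.91 ± 0.35 (SE, n = 3 per group), 3.76-fold, the largest difference of the 36 (adjusted p = 0.0467 in limma). Egln1, the hydroxylase known as the main oxygen sensor in most cells, had 12.12, 12.20 and 11.93 on Ta and 11.93, 11.87 and 11.96 on Ti. The groups overlapped, and the difference was 0.16 ± 0.10 (adjusted p = 0.301 in limma, n = 3 per group).

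Bnip3 and Bnip3l are mitochondrial outer membrane proteins that direct mitochondria to autophagy. Bnip3 had 13.04, 13.24 and 12.98 on Ta and 12.62, 12.91 and 12.68 on Ti, without overlap, a difference of 0.35 ± 0.12 (adjusted p = 0.111 in limma, n = 3 per group). Its second probe gave 0.13. Bnip3l differed by 0.08, and its second probe gave -0.11. Adm, the vasodilator peptide adrenomedullin, had 15.38, 15.21 and 15.24 on Ta and 14.64, 14.94 and 14.72 on Ti. All Ta arrays were above all Ti arrays, and the difference of 0.51 ± 0.11 lay just outside the threshold (adjusted p = 0.055 in limma, n = 3 per group).

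Ero1a, an oxidase that forms disulphide bonds in the endoplasmic reticulum, averaged 12.87 ± 0.07 on Ta and 12.43 ± 0.24 on Ti (SD, n = 3 each), without overlap (difference 0.44, adjusted p = 0.0943 in limma). P4ha1, a collagen prolyl hydroxylase subunit, differed by 0.01, with a 95% interval of -0.19 to 0.21. Kdm3a, a histone demethylase, differed by 0.11 and Ankrd37, an ankyrin repeat protein, by 0.13. All 3 are known HIF targets, and in each the groups overlapped.

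A handful of hypoxia genes lay below 0. Car9, a cell surface carbonic anhydrase that is among the most HIF-dependent genes in tumours, had 8.13, 7.80 and 7.59 on Ta and 8.44, 8.55 and 8.39 on Ti. Every Ta array lay below every Ti array. The difference of -0.62 ± 0.15 did not pass (adjusted p = 0.0656 in limma, n = 3 per group). Ndrg1, a stress-responsive protein linked to differentiation, had 10.85, 10.54 and 10.22 on Ta and 11.57, 10.53 and 11.45 on Ti. Ti replicate 2 lay with the Ta arrays, so the groups overlapped at a difference of -0.65 ± 0.31 (adjusted p = 0.216 in limma, n = 3 per group). Higd1a, a mitochondrial protein that binds respiratory complexes, had 6.88, 6.97 and 6.68 on Ta and 7.60, 6.90 and 7.43 on Ti. It showed the same arrangement of arrays, with a difference of -0.47. Ddit4, an inhibitor of mTOR signalling, differed by -0.21, with overlapping groups.

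Of the 14 hypoxia genes, 1 rose and 0 fell (7.1% called, against 4.12% of all genes). Every Ta array lay above every Ti array in 5 (35.7%) and below in 1 (7.1%), against 19.5% and 16.3% of all genes. Differences were above 0 in 10 (71.4%), against 53.8% of all genes. With each array centred on its median, P4ha1 lay just below 0. Averaged over the 14 genes, the level was 11.07, 11.11 and 10.92 on the Ta arrays and 10.87, 10.93 and 10.86 on the Ti arrays. Ta replicate 3 lay level with Ti replicate 2, so these means overlapped.

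**Figure D2:**
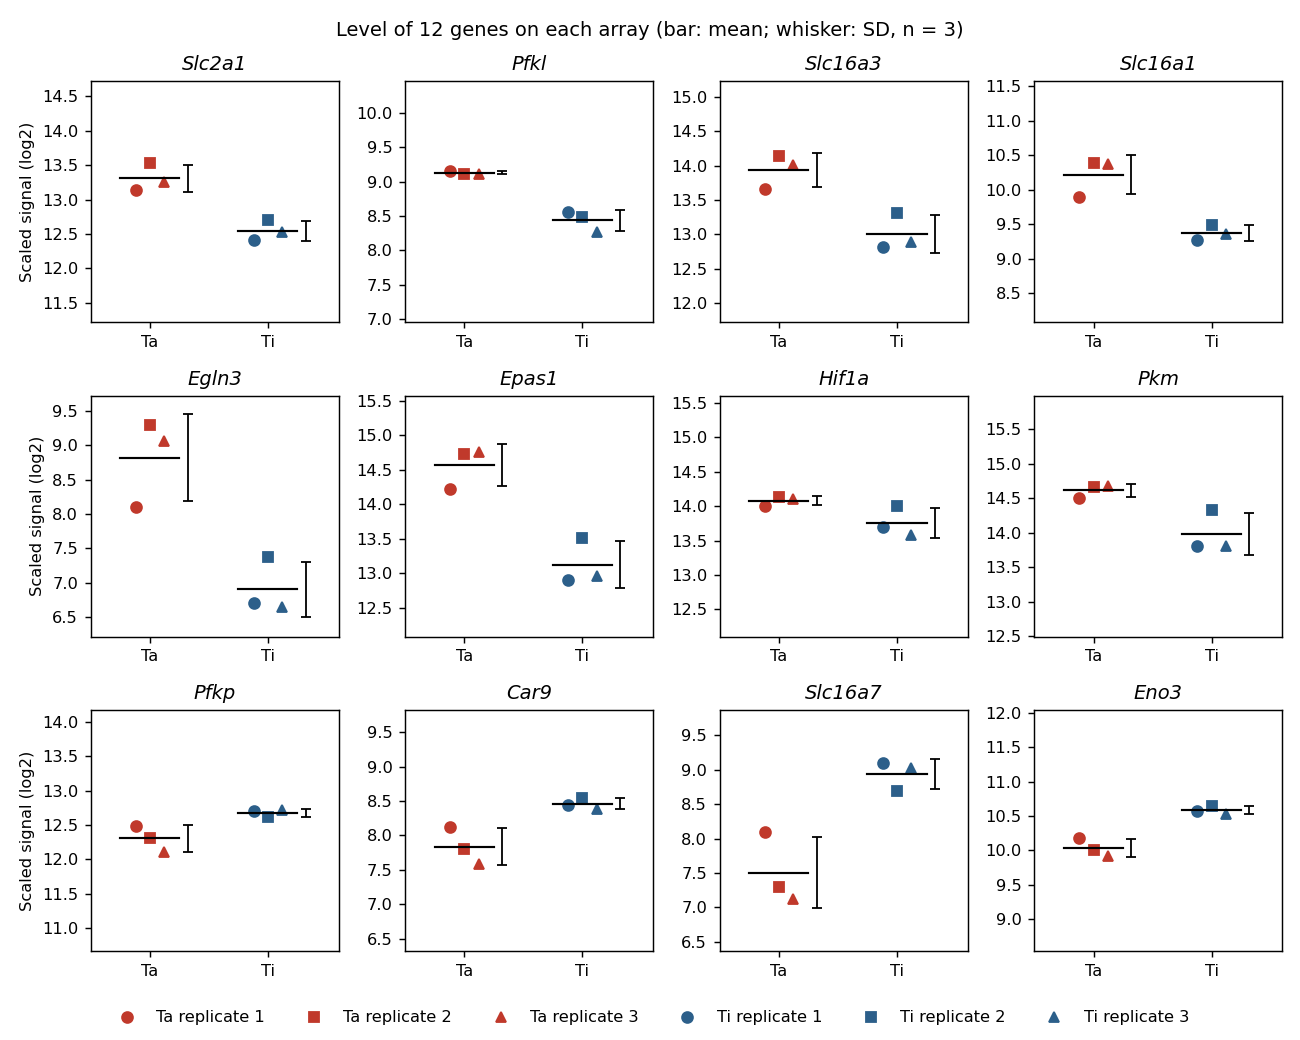
Scaled log2 signal of 12 genes on each array, Ta in red on the left and Ti in blue on the right of each panel, with the mean (bar) and SD (whisker, n = 3), every panel spanning the same log2 range. The Ta arrays lie above all Ti arrays for Slc2a1, Pfkl, Slc16a3, Slc16a1, Egln3, Epas1, Hif1a and Pkm, and below them for Pfkp, Car9, Slc16a7 and Eno3.

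Because related genes sit on the same array, the ratio of 2 of them does not depend on a scaling that shifts the whole array by 1 log2 value. Quantile scaling, which is not of this kind, changed the enolase ratio given below to 0.0031 and turned the sign of none of the other 8. The Ta minus Ti difference of this log2 ratio was taken for 9 pairs and tested with a two-sided exact permutation test over the 20 assignments of the 6 arrays. The smallest p that 3 against 3 arrays allow is 0.1, so no pair could pass 0.05. In 4 pairs the ratios did not overlap between the groups, each with an exact permutation p of 0.1, or 0.225 after Benjamini-Hochberg adjustment over the 9. The ratio of Egln3 to Egln1 was higher on Ta by 1.75 (95% interval 0.48 to 3.01), and that of Pfkl to Pfkp by 1.06 (0.65 to 1.48). Since Pfkl lay wholly above and Pfkp wholly below on Ta, the separation of their ratio follows from the values of each gene. Egln1 differed by 0.16, so the ratio of Egln3 to Egln1 largely restates the rise of Egln3. The ratio of Slc2a1 to Slc2a3 was higher by 0.73 (0.47 to 0.99). It largely restates the rise of Slc2a1, as Slc2a3 differed by 0.03. That of Bnip3 to Bnip3l was higher by 0.27 (0.01 to 0.52). The probe of Bnip3l used here and its second probe differed in sign, which the last of these does not take into account.

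The other 5 ratios overlapped. That of Hk2 to Hk1 differed by -0.24 (95% interval -0.70 to 0.23) and that of Pfkl to Pfkm by 0.13 (-0.28 to 0.54). Pfkfb3 to Pfkfb4 gave 0.29 (-0.11 to 0.69), Aldoa to Aldoc 0.08 (-0.50 to 0.66) and Eno1 to Eno2 -0.04 (-0.22 to 0.13). The exact permutation p of these 5 ran from 0.2 to 0.6. The enolase ratio had the narrowest interval of the 9.

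**Figure D3:**
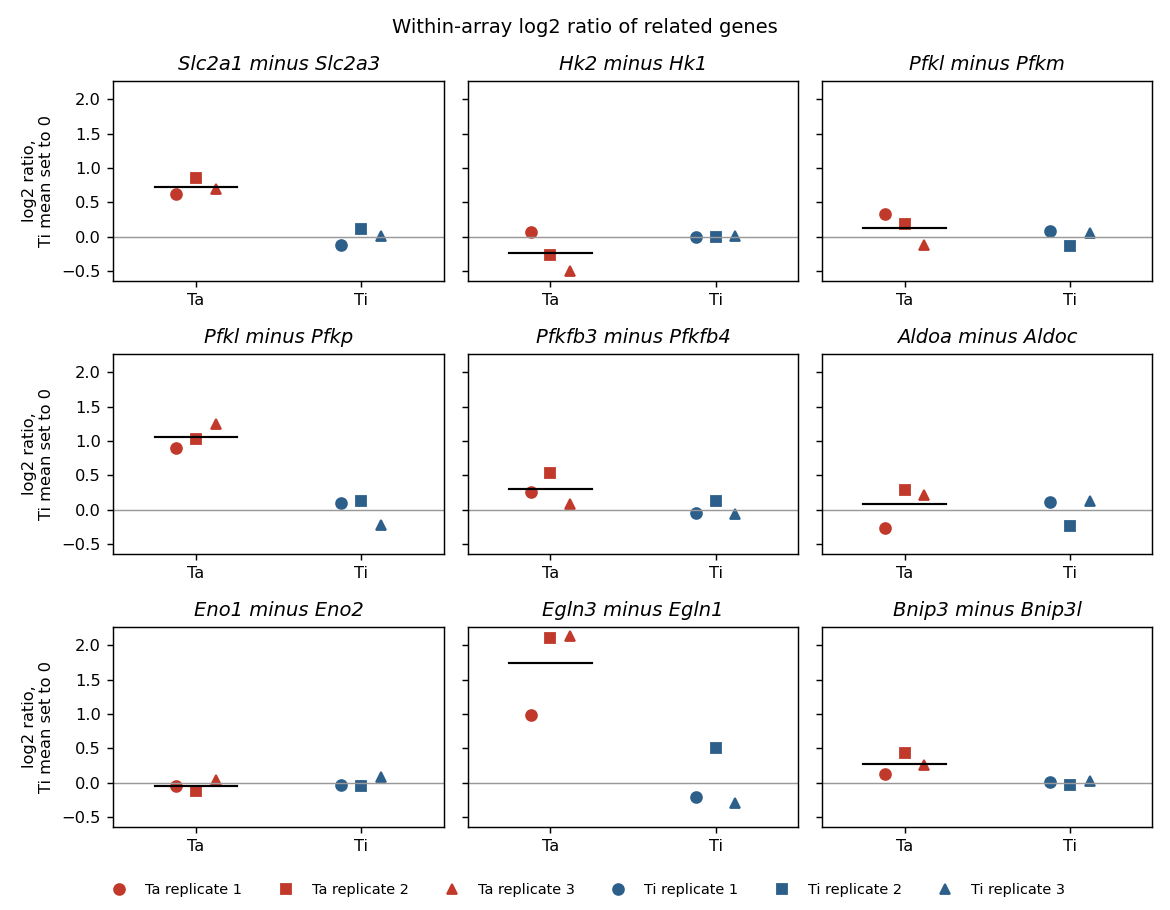
Log2 ratio of the 2 genes of each of 9 pairs on every array, shifted so that the Ti mean is 0, with Ta in red on the left (bar: Ta mean) and Ti in blue on the right. Ta and Ti points are apart for Slc2a1 and Slc2a3, Pfkl and Pfkp, Egln3 and Egln1, and Bnip3 and Bnip3l, with Ta means of 0.73, 1.06, 1.75 and 0.27.

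Of the 36 members, 14 had 2 or more tested probes. In 11 of them all probes had the same sign, and in 3 (Ldha, Pdk1 and Bnip3l) they did not. Slc2a1, Pfkl, Slc16a3 and Egln3 each had 1 tested probe, so none of the 4 calls has a second probe to set beside it.

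**Figure D4:**
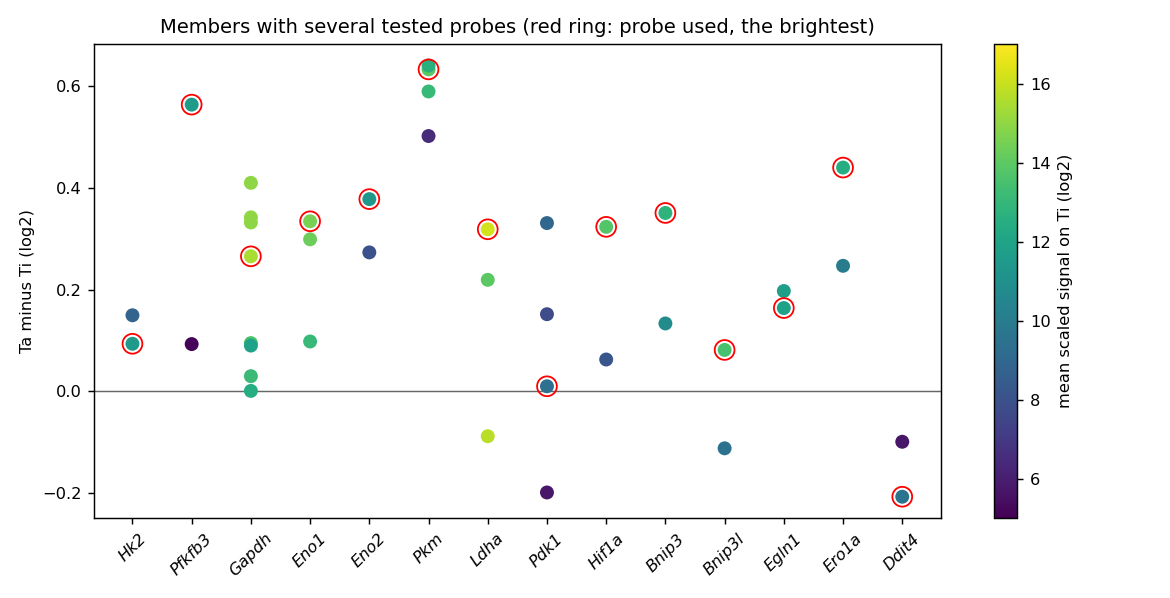
Ta minus Ti difference (log2) of every tested probe of the 14 members that had several, coloured by mean signal on Ti and ringed in red where the probe represents the gene. The 4 Pkm probes lie together between 0.50 and 0.64, and the 8 Gapdh probes spread between 0.00 and 0.41, with the dimmer ones near 0.

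The rest of the pathway was read from lists of genes not on the member list. Of 26 other glycolytic enzymes and sugar or lactate carriers, 18 could be tested, and 1 rose and 2 fell. That is 16.7% called, against 4.12% of all genes, with a median difference of 0.11. Slc16a1, the carrier MCT1 that moves lactate in either direction, had 9.89, 10.39 and 10.37 on Ta and 9.27, 9.49 and 9.36 on Ti, without overlap. It rose by 0.85 ± 0.16 (adjusted p = 0.0465 in limma, n = 3 per group), and its second probe gave 0.44. Slc16a7, the high-affinity carrier MCT2, had 8.10, 7.29 and 7.13 on Ta and 9.10, 8.69 and 9.02 on Ti. It fell by 1.43 ± 0.27 (log2, SE, n = 3 per group, adjusted p = 0.0481 in limma). Eno3, the muscle enolase, fell by 0.55 (SE 0.10, adjusted p = 0.0453), so Eno1, Eno2 and Eno3 stood at 0.33, 0.38 and -0.55. Among the 3 lactate carriers named here, Slc16a3 and Slc16a1 rose and Slc16a7 fell.

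Counts in neighbouring routes of glucose carbon are to be read beside all genes, of which 4.12% were called and 30% had an unadjusted p under 0.05. In lists of 7 to 19 genes, 0 or 1 call is near that share. Of 14 genes for the entry of pyruvate into mitochondria, 0 passed in limma, 1 had an unadjusted p under 0.05, and the median difference was 0.00. The smallest p there belonged to Pc, pyruvate carboxylase, with a difference of 0.40 (adjusted p = 0.113). Of 7 pentose phosphate genes 0 passed in limma and 3 had an unadjusted p under 0.05. Of 14 tested genes of glycogen and gluconeogenesis, 4 were higher and 3 lower at an unadjusted p under 0.05 in limma. After adjustment 0 rose and 1 fell. This was Pck2, the mitochondrial phosphoenolpyruvate carboxykinase, which fell by 0.74 ± 0.13 (log2, SE, n = 3 per group, adjusted p = 0.0451 in limma). Of 19 oxidative phosphorylation genes 0 passed in limma, 4 had an unadjusted p under 0.05, and the median was 0.01. The smallest p was that of Cox4i2, a cytochrome oxidase subunit known to be induced by low oxygen, with a difference of 0.58 (adjusted p = 0.0823).

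Among 16 other components of the HIF pathway, 1 rose and 0 fell (6.25% called, against 4.12% of all genes), with a median of 0.09. Epas1, the alpha subunit also called HIF-2 alpha, had 14.21, 14.73 and 14.76 on Ta and 12.90, 13.51 and 12.96 on Ti. The lowest Ta array lay clear of the highest Ti array, and Epas1 rose by 1.45 ± 0.22 (adjusted p = 0.042 in limma, n = 3 per group). Its second probe gave 2.42. Of 28 other HIF target genes tested, 4 rose and 0 fell (14.3% called, against 4.12% of all genes), with a median of 0.21. Tgfa, a ligand of the epidermal growth factor receptor, rose by 1.71 ± 0.28, although 1 of its 3 probes gave -0.13. Cxcl12, the chemokine that keeps blood stem cells in the marrow, rose by 1.06 ± 0.19, and Hmox1, which degrades haem, by 0.87 ± 0.14. Their adjusted p in limma (n = 3 per group) was 0.0438, 0.0453 and 0.0424. Cxcr4, the receptor of Cxcl12, also passed, with a difference of 0.80 (adjusted p = 0.0397), and is named here after its value was seen.

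Members tended to place Ti replicate 2 near the Ta arrays. It was the highest Ti array in 22 of the 36 members, and among the 31 members with a difference above 0 it was the Ti array nearest to Ta in 21. The median offset of Ti replicate 2 from the other Ti arrays was 0.15 over the members and -0.02 over all genes. Ta replicate 1 was the Ta array nearest to Ti in 18 of the 31. Without Ti replicate 2, 11 members were called higher and 1 lower, and without Ta replicate 1, 8 and 2, while 7.96% and 16.4% of all genes were called. Leaving out any 1 of the other 4 arrays (Ta replicates 2 and 3, Ti replicates 1 and 3), 0 genes passed in limma, although between 3815 and 4472 genes had an unadjusted p under 0.05.

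The arrays shared 1 slide and 1 scan. Row 1 of the slide held all Ta arrays together with Ti replicate 1, and row 2 held Ti replicates 2 and 3. Blocking on slide row compares Ta with Ti replicate 1 only, and Egln3 then differed by 2.11, Slc16a3 by 1.12, Slc2a1 by 0.90 and Pfkl by 0.57. Their adjusted p in limma then lay between 0.191 and 0.199, and 0 genes of the 19601 passed. Row 2 holds Ti arrays only and gives no value of its own. With the median of each array as the scale, Slc2a1 and Slc16a3 missed the threshold (adjusted p = 0.0503 and 0.0541), and without a filter on dim probes none of the 4 passed.

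**Figure D5:**
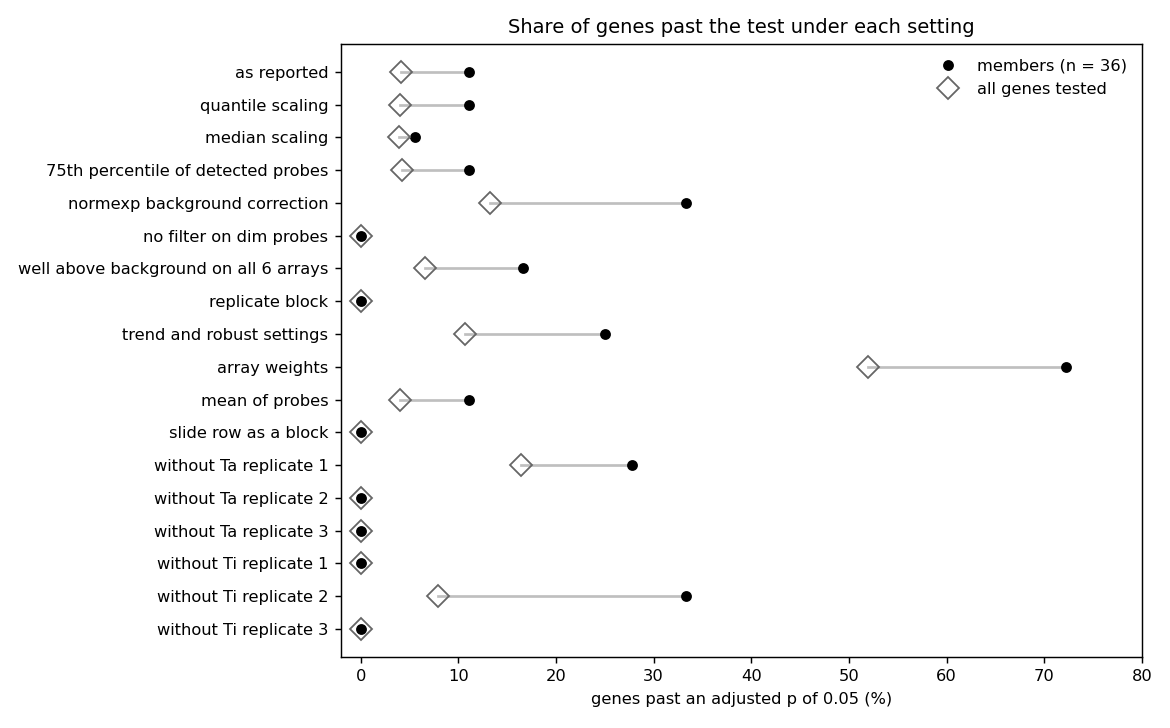
Percentage of genes past an adjusted p of 0.05 in limma under each setting, for the 36 members (filled circles) and for all genes tested (open diamonds). As reported the shares are 11.1% and 4.12%, and under 7 settings the share of members is 0%.

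The share of spots well above background was 62.7% to 65.9% per array, and signals at the 75th percentile were 1848 to 2388. Of 14 stromal markers tested, 2 rose (Thy1 and Cxcl12) and 0 fell (14.3% called, against 4.12% of all genes). Cxcl12 is also counted among the HIF target genes above. The mean level over the stromal list was 13.11, 13.10 and 13.18 on Ta and 12.94, 13.00 and 12.93 on Ti. Among the collagens that define stromal cells, Col1a1 had 16.08 on Ta and 16.14 on Ti, Col1a2 15.02 on Ta and 15.17 on Ti, and Col3a1 15.27 on Ta and 15.94 on Ti. Every Ta array lay below every Ti array for Col3a1 (difference -0.68, adjusted p = 0.0663 in limma) and for Eng (-0.37), and neither passed. Of 11 macrophage markers 0 passed in limma, and at an unadjusted p under 0.05 6 were lower on Ta and 1, Cd14, was higher (difference 0.34). Over all genes 13.2% were lower and 16.7% higher at that p. The mean level of the macrophage markers was 10.26, 9.42 and 8.63 on Ta and 10.59, 10.65 and 10.66 on Ti. The general leukocyte marker Ptprc stood at 11.49, 10.83 and 10.42 on Ta and 12.06, 11.64 and 12.30 on Ti. Of 5 tested mast cell markers (of 7) 3 fell, where 1.47% of all genes were called lower. Among them were Cma1, whose probe did not clear background on any Ta array, and Cpa3, whose probe cleared it on 1. Both cleared it on all 3 Ti arrays and would not have been tested without these, so their calls rest on Ta values near background. Hdc, another mast cell marker, lay the other way, with every Ta array above every Ti array, a difference of 0.73 and a second probe at 0.86, and did not pass. Of 3 tested neutrophil markers (of 7) 2 rose, where 2.65% of all genes were called higher. The mean level was 4.93, 4.54 and 4.55 on Ta and 6.13, 6.42 and 6.11 on Ti for the mast cell markers, and 6.28, 7.10 and 7.27 on Ta and 4.40, 5.22 and 4.75 on Ti for the neutrophil markers. Of 14 cell cycle genes 0 passed in limma. At an unadjusted p under 0.05, 9 (64.3%) were higher on Ta and 0 lower, against 16.7% and 13.2% of all genes. The difference lay above 0 in 13 of the 14 (92.9%, against 53.8% of all genes), with a median of 0.53. Their mean level was 10.18, 10.80 and 10.81 on Ta and 10.08, 10.18 and 10.17 on Ti. Endothelial (6 tested) and erythroid (1 tested) markers had 0 calls in limma, with 1 and 0 at an unadjusted p under 0.05. In RNA of a mixed culture, fewer cells of a type and less RNA per cell cannot be told apart, and the part of these other cells and of division in the member values was not tested.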

How the data were processed

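Spot intensities of 6 one-colour Agilent arrays were deposited by the authors; per the file headers, Feature Extraction subtracted background and detrended each array, with version 12.0 and limma listed in the submitters' processing notes. The deposited value table equalled the processed signal in 100% of values, so it was not run as an alternative.

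Log2 processed signals were reduced by the 75th percentile over 58717 non-control spots per array, and the mean percentile was added back. Outlier spots were left out and spots of 1 probe averaged. Probes well above background on at least 3 of 6 arrays, with a value on every array (25756 of 45598), were kept, and the brightest represented each gene. Member names came from the first Ta array's file. Other names came through RefSeq (GRCr8) for 30650 probes, and otherwise from the file. Two-sided tests used lmFit and eBayes of limma 3.58.1 under R 4.3.3. The p-values were adjusted over all genes (Benjamini-Hochberg, threshold 0.05), and differences are Ta minus Ti. The SE is limma's moderated one, which borrows variance across genes. Intervals of ratios use the pooled spread of the 6 arrays.

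All members are named. Of each other list, up to 3 genes past the test with the largest difference are named, or the 1 with the smallest p. A gene that this rule names is not reported here. The members and all lists were chosen with earlier results of these data known. In simulated data for this comparison (19601 genes, 200 changed), 73% of changes of 1 and 88% of changes of 2 (log2) were recovered, with 15 false among 176 calls. Fewer genes were changed there than the 808 called here, so these rates need not hold for the real arrays. The p-values measure the spread between these cultures only.

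Alternatives were other scalings, normexp (offset 50), other filters, a replicate block, trend and robust settings, array weights, the mean of probes, slide row as a block and leaving out each array.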

Additional observations from a re-analysis of the deposited data

How the results depend on the processing

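As reported, 808 genes were called, 4 members higher and 0 lower. Normexp background correction gave 2597, 10 and 2, trend and robust settings 2103, 8 and 1, and array weights (7.35 for Ta replicate 2) 10184, 22 and 4. Median scaling called 2 members higher. With no filter on dim probes (34903 genes) 0 genes and 0 members were called, with 5814 at an unadjusted p under 0.05 in limma, and blocking on slide row likewise gave 0 and 0, with 3837. With the replicate number as a replicate block 8 genes and 0 members were called, and the adjusted p of the 4 members lay between 0.0702 and 0.0781. The labels do not say whether same-numbered arrays are paired. Once group means were removed, correlations across genes between same-numbered arrays were 0.064, 0.13 and -0.18. Ta replicate 1 correlated best with Ti replicate 3 (0.18), and Ta replicate 2 with Ti replicate 2. Deviations from the mean of 3 arrays sum to 0, so these correlations depend on each other and cannot decide whether arrays are paired. Quantile scaling, the percentile of detected probes and the mean of probes each kept 4 members higher. Requiring all 6 arrays above background gave 1176 genes and 6 members higher. Leaving out each array in turn gave 0 to 3218 genes, 0 to 11 members higher and 0 to 2 lower. It gave a median of 0.25 to 0.39 for the glycolysis genes and 0.060 to 0.21 for the hypoxia genes, and 4 to 7 ratios without overlap. The other 11 settings gave medians of 0.26 to 0.38 and 0.09 to 0.18. Without Ta replicate 3 the hypoxia median was 0.21 and 7 ratios did not overlap. The cause of these changes was not tested.

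Directions turned only in members near 0. Aldoc gave -0.014 with quantile scaling, and with median scaling Aldoc gave -0.030, Slc2a3 -0.0038, Pdk1 -0.025 and P4ha1 -0.021. Bnip3l gave -0.016 with the mean of probes and Pdk1 -0.022 with the slide row block. Leaving out 1 array gave -0.072 to 0.13 for Aldoc, -0.085 to 0.16 for Pdk1, -0.026 to 0.051 for P4ha1, -0.017 to 0.064 for Slc2a3, -0.015 to 0.32 for Ankrd37 and -0.0092 to 0.18 for Kdm3a. Of 612 member values under all settings, 512 kept direction and side of the threshold. Most of the 512 belong to the 32 members that were not called as reported and stayed so. The 4 members called higher lost their call in 30 values. The number of arrays limits the precision.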
